A study of Mus musculus with 18 samples.

Results

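The regions described here are the intergenic part of an ATAC-seq map of mouse CD4 T cells, a map of open chromatin made by letting a transposase cut and tag accessible DNA. They were chosen by an empty overlap column in the authors' deposited table, which means that no gene and no promoter is listed as overlapping them. By this rule 17150 of 65983 distinct regions (26.0%) were intergenic. The other 48833 overlapped at least 1 gene or promoter, among them 22920 with a promoter, 21558 with introns only and 4355 with an exon but no promoter.

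The map came from 18 samples in 6 groups of 3. The groups were Id3 knockout (Id3-KO) and wild-type (WT) Th1 cells at 24 h, Id3-KO and WT cells labelled Tcmp at 72 h, and Id3-KO and WT cells labelled Teff at 72 h. All groups began as naive CD4 T cells, activated with beads carrying anti-CD3 and anti-CD28 and grown with IL-2, IL-12 and a blocking antibody to IL-4. The labels neither spell out Tcmp and Teff nor describe the knockout allele, and whether a group's 3 samples are 3 animals or 3 cultures is not given in them. The table lists the same regions with the same annotation under each of its 6 contrasts and holds no value per sample, so accessibility could not be compared between groups here, and the genotype labels could not be checked at Id3. Library depth is unknown from this table. In the authors' deposited table the p-values also followed the row order. Divided by the number of windows, the p-value fell in 0 of 242663 steps between successive rows with a p-value below 1. For this reason no fold change or p-value was tied to a region, and only positions and annotation are described. Which of the 18 libraries a region was open in cannot be told from the table.

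Open chromatin between genes holds many kinds of regulatory DNA, including enhancers, which raise transcription of genes at a distance, and insulator sites, which bound loops of chromatin. In T cells, enhancers of this kind are known around lineage factors and cytokine genes, where they can lie far from the gene. Id3 blocks E proteins, transcription factors that bind E-box motifs in enhancers and promoters during T cell development and activation. Which gene an intergenic region acts on cannot be read from position, and nearness is given below as position only.

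The intergenic regions were as wide as other regions away from promoters. Their width had a median of 550 bp (quartiles 500 and 600, range 300 to 1100), and they were merged from a median of 6 windows (range 1 to 15). Intron-only regions and exon regions without a promoter also had a median of 550 bp and 6 windows, and promoter regions had 600 bp and 7 windows. The mean width was 550 bp for intergenic, 539 bp for intron-only, 554 bp for exon and 596 bp for promoter regions. Regions of 700 bp or more made up 7.73% of the intergenic class against 23.6% of the promoter class and 6.02% of the intron-only class. Regions of a single window, all 300 bp wide, numbered 685 (3.99%) among intergenic, 1017 (4.72%) among intron-only and 646 (2.82%) among promoter regions. These are complete counts of the table rather than samples of it, so no test was made, and neighbouring regions are not independent. In the plot of widths by class, the intergenic curve lies on those of introns and exons and the promoter curve is shifted to the right.

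**Figure D1:**
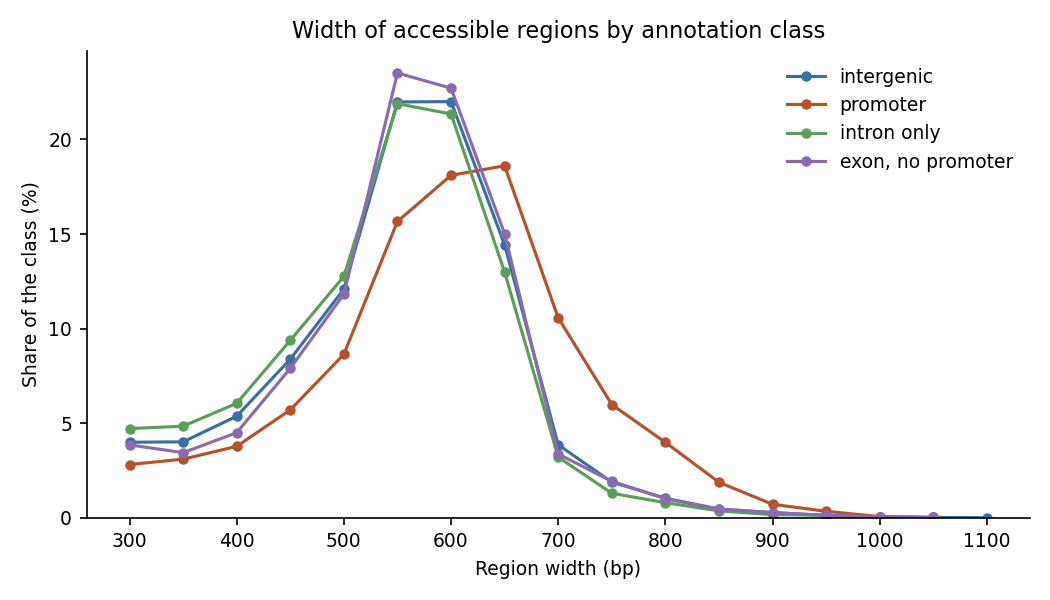
Share of each annotation class (y axis, percent) at each region width (x axis, bp, in steps of 50 bp); each point is 1 width and each line 1 class. Intergenic, intron-only and exon regions have a median of 550 bp, and promoter regions of 600 bp.

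The intergenic regions were spread over all chromosomes, at an uneven density. Chromosome 11 had the most per length, 1197 intergenic regions or 10.1 per Mb between its first and last listed region, and chromosome 14 had the fewest of the 19 autosomes, 604 or 4.95 per Mb. Chromosome X had 438 (2.65 per Mb) and chromosome Y 7. As a share of all regions of a chromosome, the intergenic class ranged from 20.4% on chromosome 19 to 32.1% on chromosome 13 among autosomes, and was 30.4% on X. Density and share did not rank the chromosomes alike. Chromosome 11, first in intergenic density, had an intergenic share of 23.9%, under that of the whole table, and held 32.1 gene-overlapping regions per Mb, the highest of all chromosomes. Chromosome 3 had 6.42 intergenic regions per Mb and a share of 30.8%, beside 14.4 gene-overlapping regions per Mb. Over the 2139 bins of 1 Mb that hold a region, the numbers of intergenic and gene-overlapping regions had a Pearson correlation of 0.55 and a Spearman correlation of 0.69. This is a description over bins that share the same libraries and differ in mappable sequence and gene content. The bin with the most, from 52 to 53 Mb of chromosome 13, held 61 intergenic regions beside 12 that overlap a gene. The next, from 52 to 53 Mb of chromosome 3, held 60 beside 34.

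**Figure D2:**
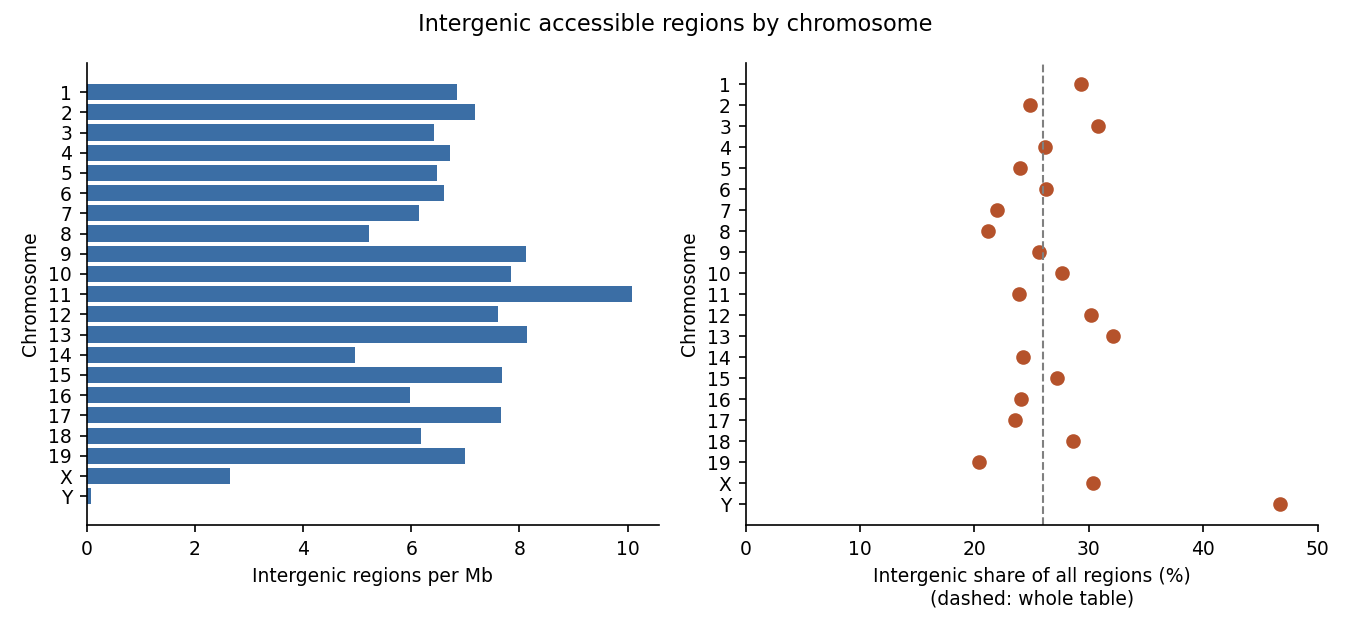
Intergenic regions per Mb between the first and last listed region of each chromosome (left, bars) and their share of all regions of the chromosome in percent (right, points; the dashed line is the 26.0% of the whole table). Chromosome 11 has the highest density, 10.1 per Mb, and a share of 23.9%.

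Intergenic regions often stood next to each other. The next region along the chromosome was also intergenic for 10884 of 17136 intergenic regions (63.5%), and for 12.8% of gene-overlapping regions. Such runs are partly built into the annotation, since every region in a gap between genes falls in this class. The gap from an intergenic region to the next intergenic one had a median of 18350 bp (quartiles 4650 and 95950), close to the 17350 bp between intron-only regions. The closest intergenic pair was 650 bp apart, and 1792 gaps (10.5%) were 2 kb or less. At the other end 529 gaps (3.09%) were over 1 Mb. The largest, 86591550 bp, was on chromosome Y.

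Most intergenic regions lay within 25 kb of a gene-overlapping region (58.7%). The distance to the nearest one had a median of 19400 bp (quartiles 8700 and 43000). Within 10 kb there were 4979 (29.0%), within 50 kb 13502 (78.7%) and within 100 kb 15584 (90.9%). Only 150 (0.875%) lay beyond 500 kb. Width changed little with this distance. The mean was 555 bp within 10 kb, 552 bp from 10 to 50 kb, 543 bp from 50 to 100 kb, 535 bp from 100 to 500 kb and 546 bp beyond, with a median of 550 bp in all 5 classes.

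A few regions stood alone in deserts. No other region of the table lay within 1 Mb on either side of 19 intergenic regions. The most isolated was chr2:97978551-97979100, 550 bp wide, with 3.68 Mb to the region before it and 3.06 Mb to the region after. The nearest gene-overlapping regions on each side of it lie over Api5, a gene of an inhibitor of apoptosis, and Iftap. Genes with no region over them may be nearer. The next was chr1:101829901-101830800, which was 900 bp wide and had 2.87 and 3.01 Mb of unlisted sequence beside it. Of the 10 most isolated, 3 were on chromosome X, among them chrX:78926701-78927300 between regions over Prrg1 and over Dmd, the dystrophin gene. The widths of these 10 ran from 350 to 900 bp, inside the range of the class.

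The widest intergenic region was chr19:14365201-14366300, 1100 bp from 7 windows. The nearest gene-overlapping region, 62.95 kb away, is over Tle4, a corepressor of the Groucho family. A width of 1050 bp was shared by 4 regions, among them chr10:97148851-97149900, chr1:143951801-143952850 and chr7:80490051-80491100. The one on chromosome 1 named here lies between Rgs2 and Rgs1, regulators of G protein signalling, 69.05 kb from the Rgs2 region and 166 kb from the Rgs1 region. An unbroken run of 300 bp windows in steps of 50 bp over 1050 bp would hold 16 windows, and the 4 regions of this width had 9, 8, 7 and 4. In all, 338 intergenic regions (1.97%) were wider than their windows in steps of 50 bp would make them, against 2.34% of gene-overlapping regions. The region with the most windows among the 10 widest, 15 in 1000 bp, was chr4:141000051-141001050. Its nearest gene-overlapping region, 3.2 kb to its left, is over a gene given by an Ensembl ID only. To its right a region over Epha2, a receptor tyrosine kinase gene, is 25.4 kb away. Another of the 10 widest, chr2:130419501-130420500, stood 527 bp downstream of Oxt and 2040 bp downstream of Avp. These are the oxytocin and vasopressin genes, which face each other across it.

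Of the intergenic regions 36.2% fell into clusters, defined as 3 or more with gaps of at most 10 kb between neighbours. There were 1492 clusters with 6212 regions, 2007 pairs and 6924 single regions (40.4%). The same rule put 35.9% of intron-only regions into 1797 clusters. A cluster spanned a median of 12850 bp (quartiles 9000 and 18250, longest 74050). Clusters of 3 numbered 755, and 34 clusters held 10 or more regions, 394 in all. Regions in clusters of 6 or more were slightly wider than single ones, with a mean of 562 against 542 bp and 6.20 against 5.79 windows. A gene was listed beside 12.4% of them and beside 36.1% of single regions.

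The 10 clusters with the most regions are given with the nearest coding genes that have a region. The one with the most, 18 regions over 57.4 kb at chr11:52184801-52242200, lies upstream of Tcf7. This gene encodes TCF-1, a transcription factor of the T lineage and of memory T cells. The cluster begins 18.15 kb from the nearest region over Tcf7 and ends 9.35 kb before a region over Vdac1, a channel of the mitochondrial outer membrane. Its regions were 400 to 750 bp wide (median 600) with a median gap of 2500 bp, and they covered 18.5% of the span. They stood in an unbroken series, with no gene-overlapping region among them, the first at 18.15 kb, the tenth at 45.8 kb and the last at 74.95 kb from the Tcf7 region.

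The second cluster, 17 regions over 73 kb at chr2:117216551-117289550, lies upstream of Rasgrp1, an activator of Ras downstream of the T cell receptor. It begins 42.95 kb from the nearest Rasgrp1 region and has 2 regions over a predicted gene inside it. The third, 16 regions over 74.05 kb at chr6:114522651-114596700, ends 23.1 kb before a region over Atg7, an enzyme of autophagy. The fourth, also of 16 regions, is at chr12:25263601-25324950. The nearest coding gene with a region is Id2, which lies 114 kb from it, with the cluster on its upstream side. A region over a gene not classed as coding lies between, so the cluster is not in the count for Id2 below. Id2, like Id3, encodes an inhibitor of E proteins.

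The fifth cluster (chr12:55468751-55535850, 13 regions) ends 3.4 kb from a region over Nfkbia, the gene of the NF-kB inhibitor IkBa. The sixth (chr15:62674501-62711700, 13 regions) was the most tightly packed of the 10, with a median gap of 1825 bp and 19.4% of its span covered. Its nearest coding gene with a region was Myc, 819 kb away, and a region over a gene not classed as coding lies between them. The seventh (chr2:102800451-102849900, 12 regions) lies between Pdhx, a component of the pyruvate dehydrogenase complex, at 29.25 kb and Cd44, an adhesion receptor raised on activated T cells, at 68.3 kb. The eighth (chr2:173248651-173297400, 12 regions) is 122 kb from Ankrd60 and 127 kb from Pmepa1, an inhibitor of TGF-beta signalling. The ninth (chr10:118283501-118331700, 12 regions) begins 4.25 kb downstream of a region over Ifng, the interferon-gamma gene. The last (chr19:53384051-53430400, 12 regions) lies between Smndc1, a splicing factor, and Dusp5, a phosphatase of ERK. In the map of these clusters the packed rows of Tcf7 and of the Myc side stand out against the looser row of Nfkbia, whose median gap was 4525 bp.

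**Figure D3:**
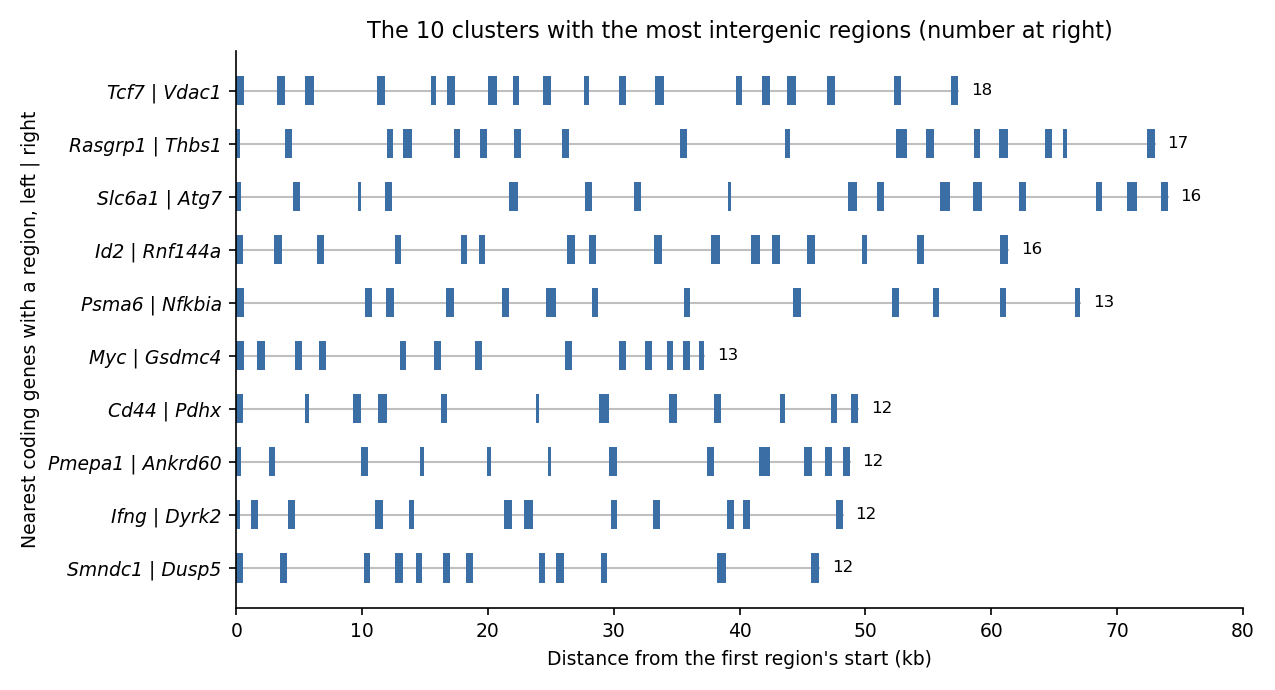
Position of each region (blue bars, to scale) in the 10 clusters with the most intergenic regions, as distance in kb from the first region's start (x axis). Rows name the nearest coding genes with a region on each side, and the numbers of regions at the right run from 18 beside Tcf7 to 12.

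The clusters depended on the allowed gap. With 25 kb the one with the most was chr13:51952151-52238100, with 35 regions over 286 kb between Sema4d, a semaphorin of lymphocytes, and Diras2. The genes named here are the nearest coding genes with a region outside each end, and regions over other genes can lie inside. Second came 26 regions over 171 kb between Rgs2 and Brinp3, with a region over Rgs1 among them. Rows of 25 lay between Ubl3 and Katnal1 and between Il2 and Cetn4, where Il21 also lies. Between Foxo1, a transcription factor of quiescent and memory T cells, and Cog6 there were 21. Of the 10 clusters above, 2 overlapped the 10 with the most at 25 kb, 3 at 5 kb, and 9 where runs were also ended by a gene-overlapping region. At 5 kb the one with the most was still the part of the Tcf7 cluster at chr11:52184801-52218800, with 12 regions.

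Counted without a gap limit, the regions fell into 6266 stretches between successive gene-overlapping regions, with a median of 2 per stretch. Genes with no region over them can lie inside a stretch and are not named. There were 216 stretches with 10 or more, which held 2886 intergenic regions. The stretch with the most held 33 and ran 464 kb up to Rplp1, a ribosomal protein gene on chromosome 9. Next came 32 in a stretch of 2257 kb between Rnpc3 and Dph5 on chromosome 3. Between Icos, a costimulatory receptor, and Pard3b on chromosome 1 there were 25 over 648 kb. Up to Gata3 on chromosome 2 there were 24 over 266 kb, and between Alcam and Nfkbiz on chromosome 16 there were 24 over 3368 kb.

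The columns left and right of the table name genes that lie up to 5 kb from a region. They were empty for 12413 intergenic regions (72.4%). A gene was named for 4737 (27.6%), and on both sides for 593 (3.46%). The named pairs numbered 5714, with 4977 different genes. Of these genes 3597 matched a RefSeq symbol, and 2890 (58.1%) were protein-coding, 285 lncRNAs, 247 pseudogenes and 62 miRNAs, while 1351 (27.1%) were given by an Ensembl ID only.

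Of the 5714 pairs, 3975 (69.6%) had the region downstream of the gene and 1739 (30.4%) upstream. The upstream distances began at 3003 bp, because nearer regions are listed as promoter overlaps, so the 2 sides can be compared only beyond that. From 3 to 4 kb there were 911 upstream and 783 downstream pairs, and from 4 to 5 kb 828 and 734. Below 3 kb there were 785, 862 and 811 downstream pairs in the successive kilobases, so the number showed no steep fall with distance from the gene's end. Exactly 1 gene stood on each side of 520 regions. In 274 of these (52.7%) the genes pointed at each other, in 204 (39.2%) they lay on the same strand, and in 42 (8.08%) they pointed away, where both promoters must be over 3 kb off.

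**Figure D4:**
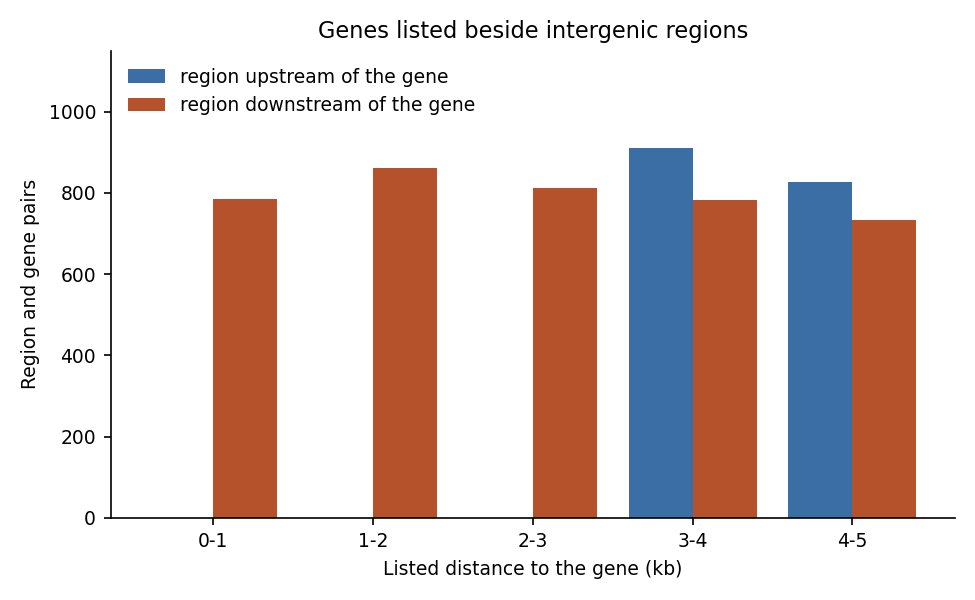
Number of region and gene pairs (y axis) by the listed distance in kb (x axis), for regions upstream (blue) and downstream (orange) of the gene. No upstream pair lies below 3 kb, where a region counts as a promoter overlap, and from 3 to 4 kb there are 911 upstream and 783 downstream pairs.

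A gene was usually named beside a single intergenic region. This was so for 4316 genes, while 594 had 2, 62 had 3 and 5 had 4. Among those 5 were Grb2, Brf1, Dyrk3 and the lncRNA 4930519D14Rik. Grb2, an adaptor of receptor signalling to Ras, had 3 regions downstream and 1 upstream, between 271 and 4571 bp away. Brf1, a subunit of an RNA polymerase III factor, had the same split, and Dyrk3, a kinase, had 2 on each side.

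Among the flanking genes were miRNA genes, whose short RNAs pair with mRNAs through a seed near their 5′ end. There were 62, beside 51 intergenic regions, and 58 had a mature sequence in the RefSeq table (GRCm38.p6). The sequences below are shown because they are the products of genes that these regions flank and because several share a seed. Capitals mark the seed, bases 2 to 8. Of the seeds, 7 were shared by 2 or more of the genes. The let-7 seed was found beside 2 regions. One of them, chr15:85594301-85594850, lies 2697 bp downstream of Mirlet7b and 3403 bp downstream of Mirlet7c-2, and the other, chr10:122818751-122819250, lies 2295 bp downstream of Mirlet7i.
let-7b-5p: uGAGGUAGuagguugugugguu
let-7c-5p: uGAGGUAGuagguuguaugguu
let-7i-5p: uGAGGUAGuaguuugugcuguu

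A single region on chromosome X, chrX:51828551-51828950, 400 bp wide with 3 windows, stood downstream of a whole miRNA cluster, at 1620 bp from Mir363, 1765 bp from Mir92-2, 2040 bp from Mir20b and 2430 bp from Mir106a. Mir18b and Mir19b-2 lay between these, at 2258 and 1910 bp. This miRNA cluster is a paralogue of the one that holds miR-17 and miR-92a, which is known for its part in lymphocyte growth. Of its 6 genes, 4 fall into 2 pairs by seed and are shown, and the first pair has the seed of the miR-17 family.
miR-106a-5p: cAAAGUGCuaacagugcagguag
miR-20b-5p: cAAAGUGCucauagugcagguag
miR-92a-3p: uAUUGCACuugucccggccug
miR-363-3p: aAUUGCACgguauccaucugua

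A further 5 miRNA genes, chosen after their values were seen, are shown as examples. The region chr8:84930201-84930600 lies upstream of Mir23a, Mir27a and Mir24-2, at 4547, 4701 and 4844 bp. The region chr11:87642401-87642850 lies 4840 bp upstream of Mir142, a miRNA gene of blood cells, and chr11:86469701-86470250 lies 4643 bp downstream of Mir21a, which is induced on T cell activation. The 5 mature forms shown here have 5 different seeds.
miR-23a-3p: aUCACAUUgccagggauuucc
miR-27a-3p: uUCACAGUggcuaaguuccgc
miR-24-3p: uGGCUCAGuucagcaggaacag
miR-142a-5p: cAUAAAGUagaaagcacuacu
miR-21a-5p: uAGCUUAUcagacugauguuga

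Intergenic regions were listed beside many genes of the T cell programme. Lists of 133 T cell genes and of 39 genes of other cell types were used, and the lists were chosen with earlier results of these data known. A region lay over 10 of 11 genes of the T cell receptor complex and its signalling. The same held for 6 of 9 B cell, 5 of 10 myeloid, 5 of 8 erythroid and 7 of 12 other tissue genes. The 10 include Cd8b1, and the share over all genes is not known here, so these counts do not check the labelled cell type. Of the T cell genes, 60 (45.1%) were named in left or right of an intergenic region, against 18.6% of the 26755 genes named anywhere in the table. Of the 39 genes of other cell types, 5 (12.8%) were so named. Both lists were counted whether or not the table names each gene. Of the 133 T cell genes 128 had a region over them, but only 23 of the 39 did. The 12.8% therefore cannot be set directly against the other shares. The T cell genes also had more regions over themselves, with a median of 3 against 2 for all genes with a region, and the part of this in the counts was not tested.

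A wider count took, for each gene, the intergenic regions whose nearest gene-overlapping region on either side lies over that gene, at any distance. It was added once the table was known. Over the 22888 genes in the overlap column it had a median of 1, a 90th percentile of 5 and a maximum of 39, and 11.3% of genes had 5 or more. Among the 128 T cell genes with a region of their own the median was 3, and 56 (43.8%) had 5 or more. Among the 23 such genes of other cell types the median was 1, and 3 (13.0%) had 5 or more. Counting only regions within 100 kb, 51 T cell genes had 5 or more, against 8.16% of all 22888 genes. With regions over predicted symbols skipped, 76 T cell genes had 5 or more, against 15.7% of the 15396 genes left. No test was made of these list counts.

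**Figure D5:**
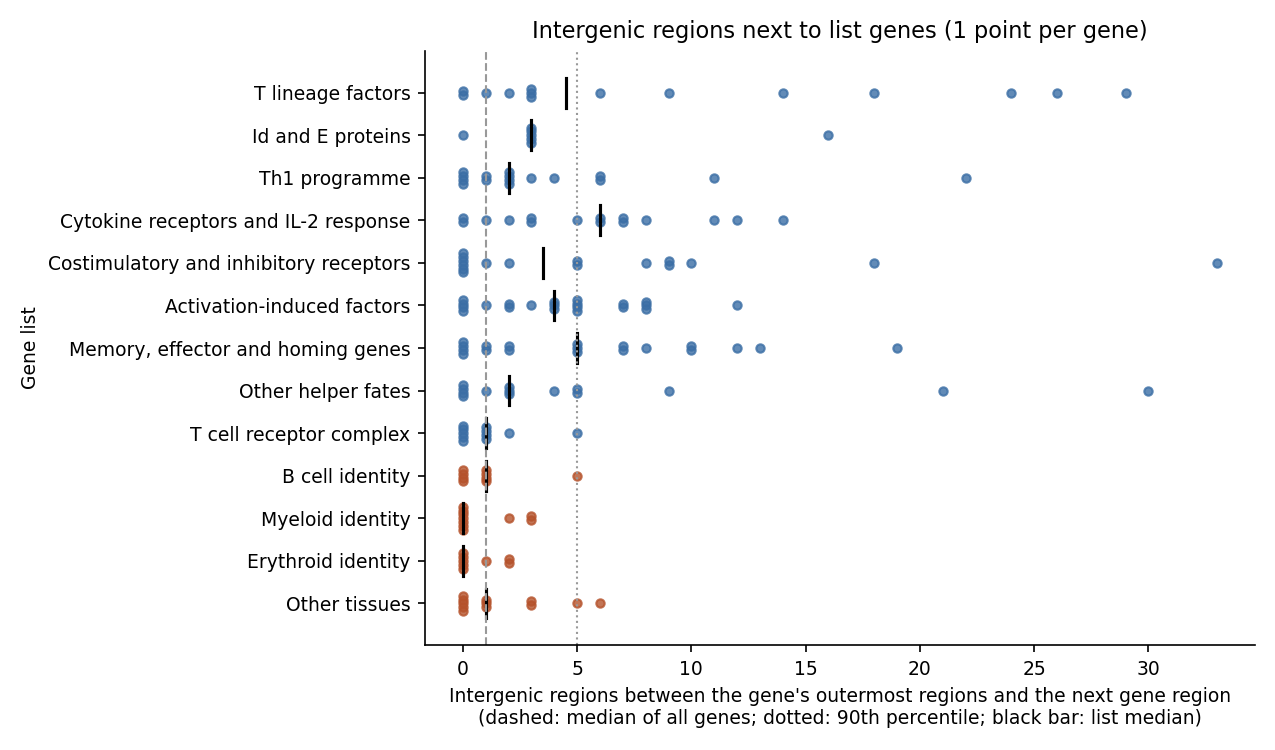
Intergenic regions whose nearest gene-overlapping region on either side lies over the gene (x axis), 1 point per gene, by list (y axis; T cell lists blue, others orange). Black bars are list medians, and the dashed and dotted lines the median of 1 and the 90th percentile of 5 over all 22888 genes; the points far to the right are Icos (33), Maf (30), Tox (29), Runx3 (26), Gata3 (24), Ifng (22) and Il10 (21).

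In the T lineage list the median was 4.5, with 7 of 14 genes at 5 or more. Tox, an HMG-box factor of T cell development and exhaustion, had 29, of which 2 were within 100 kb. Runx3, a factor of cytotoxic and Th1 cells, had 26, 22 of them upstream, and 20 lay within 100 kb. Gata3, the Th2 and T lineage factor, had 24, all downstream, from 34.6 to 253 kb away, and 7 lay within 100 kb. Tcf7 had the 18 of its upstream cluster. Ikzf1 and Zbtb7b had 0, with 18 and 6 regions over the genes themselves.

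Of the 7 Id and E protein genes, Id3 had 16, and Id1, Id2, Tcf3, Tcf4 and Tcf12 had 3 each, while Id4 had 0. Of the Id3 regions 13 lay upstream and 3 downstream, all on chromosome 4 and within 79.65 kb of the nearest region over the gene. The upstream ones began with chr4:135856551-135857150, at 10.35 kb, and 9 of them formed a cluster that reached to 44.05 kb. The widest, chr4:135850301-135851150 with 12 windows in 850 bp, was at 16.35 kb. A further 4 lay between 57.95 and 79.65 kb. Downstream, chr4:135874851-135875600 (750 bp, 10 windows) lay 1785 bp from the gene as listed, followed by 2 regions of 600 bp at 16 and 19.4 kb. The other genes whose regions bracket these 16 are E2f2, a cell cycle factor, and Rpl11, a ribosomal protein gene.

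In the Th1 list the median was 2, with 4 of 16 genes at 5 or more. Ifng had 22, 10 upstream and 12 downstream, and 21 lay within 100 kb. The upstream ones stood at 4.7 kb, in a group of 5 between 21 and 35.6 kb, at 53.85, 66 and 69.65 kb, and singly at 171 kb. The downstream 12 are the cluster described above. The first of them, chr10:118283501-118283800, is a single window 1704 bp from the gene as listed, and the last, chr10:118331151-118331700, stands at 51.9 kb. Ifngr1, a chain of the interferon-gamma receptor, had 11, and Eomes, a T-box factor, had 6, all upstream between 22.05 and 62 kb. Il2, the T cell growth factor gene, had 6 upstream. Tbx21, the Th1 master regulator, had 0, and 4 regions over the gene itself. Irf1 and Ifngr2 also had 0.

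The list of cytokine receptors and the IL-2 response had the highest median, 6, with 9 of 15 genes at 5 or more. Socs3, an inhibitor of cytokine signalling, had 14, of which 13 were downstream, and 3 were named within 5 kb at 55, 2155 and 4628 bp. Il4ra had 12, Il7r, the receptor of the survival cytokine IL-7, had 11, all upstream and within 47.05 kb, and Socs1 had 8, all downstream. Among costimulatory and inhibitory receptors the median was 3.5. Icos had 33, of which 25 lay in the stretch towards Pard3b, and 20 lay within 100 kb of the nearest Icos region. Cd44 had 18, all upstream, Btla had 10 and Ctla4 9. Ctla4 and Icos are neighbours, and the regions between them are in the counts of both. By the same count Cd28, Tnfrsf4, Tnfrsf9, Tnfrsf18, Cd27 and Cd5 had 0.

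Memory, effector and homing genes had a median of 5, with 11 of 19 at 5 or more. In this list S1pr1 and Klrg1 had no region over them and so had 0 by definition. Ccr7, the lymph node homing receptor, had 19 within 51.75 kb, 11 upstream and 8 downstream. Prdm1, the gene of Blimp-1, had 13, and 3 of them were named within 5 kb at 2023, 3854 and 4473 bp. Zeb2, a transcriptional repressor of effector T cells, had 12, of which 6 lay within 100 kb and the farthest at 2887 kb. Bach2, a repressor of effector differentiation, had 10, all within 84.6 kb. Among activation-induced factors the median was 4, led by Fos with 12 split evenly over both sides, and by Fosl2, Nfatc2 and Nfkb1 with 8 each. Jun, with no region over it, had 0 by definition.

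Genes of other helper fates had a median of 2 and were uneven. Maf had 30, 15 on each side, and 10 lay within 100 kb. Il10, the anti-inflammatory cytokine gene, had 21, of which 3 downstream were named at 740, 2890 and 4340 bp. Il21 had 9. Il5 and Foxp3 had 0, as did Il17a, which had no region over it and so had 0 by definition. In the T cell receptor list the median was 1. Cd4 had 5, all upstream between 3.25 and 14.9 kb, and Cd3g, Cd247 and Cd8b1 had 0. Cd8a had no region over it and so had 0 by definition, though an intergenic region was listed 2544 bp downstream of it. Genes of other cell types were at a median of 1 (B cell and other tissues) or 0 (myeloid and erythroid). Only 6 of 9 B cell, 5 of 10 myeloid, 5 of 8 erythroid and 7 of 12 other tissue genes had a region over them. The others are in these medians with a 0 that the definition fixes, so the medians cannot be set directly against those of the T cell lists. The highest counts of other cell types were 6 beside Neurod1 and 5 beside Neurod2, both neuronal factors. Ebf1, a B cell factor, also had 5, where the regions were 730 kb or more away.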

How the data were processed

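ATAC-seq was done on 18 samples in 6 groups of 3. Per the submitters' processing notes the build was GRCm39 and the tools included BWA, Trim Galore, edgeR and Picard. Not given in the sources used here are their versions and settings, and how windows were merged and annotated. The deposited table gives, per the file headers, region positions, widths, numbers of windows, p-values and gene names; it holds 395898 rows, the same regions in 6 contrasts. The authors' deposited p-values were used only to check row order.

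Regions with an empty overlap column were taken once each and analysed with Python 3.11.15 and pandas 2.3.3. Gaps run from edge to edge. Helper functions were tested on made-up tables with known answers. Named regions and genes are the first by size, isolation or number of regions, up to 10 per rule, up to 4 per gene list with most regions, chosen first by the left and right columns and, after the table was seen, by bracketing regions, together with genes at 0 and a few others, chosen after their values were seen. The members and lists were chosen with earlier results of these data known. Gene kinds came from RefSeq (GRCm38.p6) by symbol and no coordinates of it are printed. No GRCm39 sequence was used here, so region sequences, motifs and distances to unlisted genes were not analysed. No depth is known and no test was made. A few genes and regions that the naming rule covers are not reported here.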

Additional observations from a re-analysis of the deposited data

How the results depend on the processing

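Requiring empty left and right columns lowered the intergenic share to 18.8%. With at least 2 windows the median gap was 19250 bp. Clusters numbered 951 with a gap of 5 kb and 405 with at least 5 regions, and held 20.2% and 15.3% of intergenic regions. With 25 kb they held 57.5%, and the one with the most had 35 regions. Without predicted symbols a gene was named beside 17.8%. Counting bracketing genes in place of left and right, an alternative chosen after seeing the data, gave 101 T cell list genes with an intergenic region. The other settings moved shares and medians by less than a 95% binomial interval (Wilson for shares, order statistics for medians, counting error only) and counts by at most 1.5 times. The planned settings that need a GRCm39 genome or annotation were not run: overlap and nearest genes by a reference, whole-region sequence content, and distance to coding genes. No paired analysis was possible because sample values are missing from the table used, and no replicate could be left out. Depth is unknown, so its limits could not be judged.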

Other observations

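The 7 intergenic regions of chromosome Y lay in 2 groups. The first 3 were between 1864351 and 4150500 bp and the other 4 between 90742051 and 90836900 bp, with no intergenic region in the 86591550 bp between. They were 450 to 650 bp wide, within the range of other chromosomes.

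Of the miRNA seeds shared by several flanking genes, 1 belonged to Mir680-1 and Mir680-3, copies that give the same mature miRNA. An intergenic region on chromosome 6 lay 3998 bp upstream of Mir680-1, and another on chromosome 12 lay 2210 bp downstream of Mir680-3.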
